A study of Mus musculus with 14 samples.

Results

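Genes that astrocytes are known for were followed in the hippocampal transcriptomes of LPAR2-/- and wild-type (WT) mice. The 10 genes were picked by name from the 24421 genes of the count table and form 2 sets, 6 homeostatic genes (Aqp4, Slc1a2, Slc1a3, Gja1, Glul and Aldh1l1) and 4 reactive genes (Gfap, Vim, Lcn2 and Steap4). The study took hippocampi from 7 mice labelled LPAR2-/- and 7 WT mice, all naive, and sequenced total RNA, with 1 library per mouse. LPAR2 is a receptor for lysophosphatidic acid that is best known at glutamatergic nerve endings, and the comparison asked how its loss changes gene expression in the hippocampus. All 14 mice were males of the strain 129.C57Bl6. Every mouse is labelled as 10 to 12 weeks old, whereas the description of the series calls the animals middle-aged or aged, so the age is uncertain. The mice labelled LPAR2-/- came from a colony of homozygotes kept beside a separate colony of controls of mixed C57BL/6 and 129/SvJ background, so that genotype and colony cannot be told apart. The results text of the study names the dentate gyrus where labels and methods name the hippocampus, and the methods give removal of ribosomal RNA while the labels name the kit without this step, so the dissected region and the selection of RNA are uncertain. No cell type was isolated, and every value is an average over all cells of the tissue.

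Astrocytes clear glutamate from the synaptic cleft, convert it to glutamine, buffer potassium and water at their endfeet on blood vessels, and are joined to each other by gap junctions. When the tissue is injured or inflamed, they become reactive, a state known for more intermediate filament protein and, upon systemic inflammation, for secreted and membrane proteins such as lipocalin 2 and the metalloreductase STEAP4. The homeostatic set stands for the first group of functions and the reactive set for the second.

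Reads counted on genes numbered 15434620 to 23258949 per library, with medians of 19499276 in mice labelled LPAR2-/- and 19964167 in WT mice. Of all genes, 14897 had enough counts to be tested with edgeR's quasi-likelihood test, and 1009 (6.77%) passed a Benjamini-Hochberg adjusted p of 0.05, 494 higher (3.32%) and 515 lower (3.46%) in mice labelled LPAR2-/-. Upper-quartile scaling turned this split into 616 higher and 377 lower. The targeted gene itself went against the labels. In counts per 1000000 counts of the library (CPM), Lpar2 had 9.54 ± 1.41 CPM (SD, n = 7) in mice labelled LPAR2-/- and 2.36 ± 0.676 CPM (n = 7) in WT mice, and was thus higher where it should be deleted, with an edgeR adjusted p of 8.22e-07. According to the methods, the deletion covers only the second part of exon 2, which counts per gene cannot single out, and the genotypes are therefore given as labelled throughout.

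All 10 members were read on a per-length scale to order their levels. Glul was the most abundant, at 496 ± 48.1 CPM per kilobase of counted exon (SD, n = 14 mice), followed by Slc1a2 at 234 ± 12.7, Slc1a3 at 199 ± 10.3, Gfap at 93.6 ± 12.4, Gja1 at 85.9 ± 8.37, Vim at 30.5 ± 9.68, Aqp4 at 25.9 ± 4.14 and Aldh1l1 at 15.3 ± 1.65. Lcn2 and Steap4 came last, at 5.17 ± 8.72 and 0.228 ± 0.194 CPM per kilobase. Some neighbours in this order overlapped. Gfap was above Gja1 in 10 of 14 mice, and Vim was above Aqp4 in 8 of 14 mice, so these pairs were not separated beyond their spread. Aldh1l1 was above Lcn2 in 11 of 14 mice and Lcn2 above Steap4 in 9 of 14 mice. Slc1a2 was above Slc1a3 in 14 of 14 mice although their ranges touched. The reactive genes thus did not form one level class. Gfap was expressed at the level of the gap junction gene Gja1, while Lcn2 and Steap4 were close to the detection floor in most mice. Because counts on exons were summed over all transcripts of a gene, the per-length levels depend on the annotated length.

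None of the 10 genes passed the adjusted threshold in edgeR, against 6.77% of all genes tested, and in none did the CPM values of the genotypes separate completely, against 1.77% of all genes tested. Of the 8 members that could be tested, 2 (Glul and Vim) had an unadjusted p under 0.05, as had 22.4% of all genes. DESeq2 and limma also called 0 members. The median log2 fold change was −0.10 over the 6 homeostatic genes and 0.22 over the 2 reactive genes tested, against 0.00 over all genes tested. Since the tissue was sequenced in bulk, fewer astrocytes and less RNA per astrocyte could not be told apart in any of these values.

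**Figure D1:**
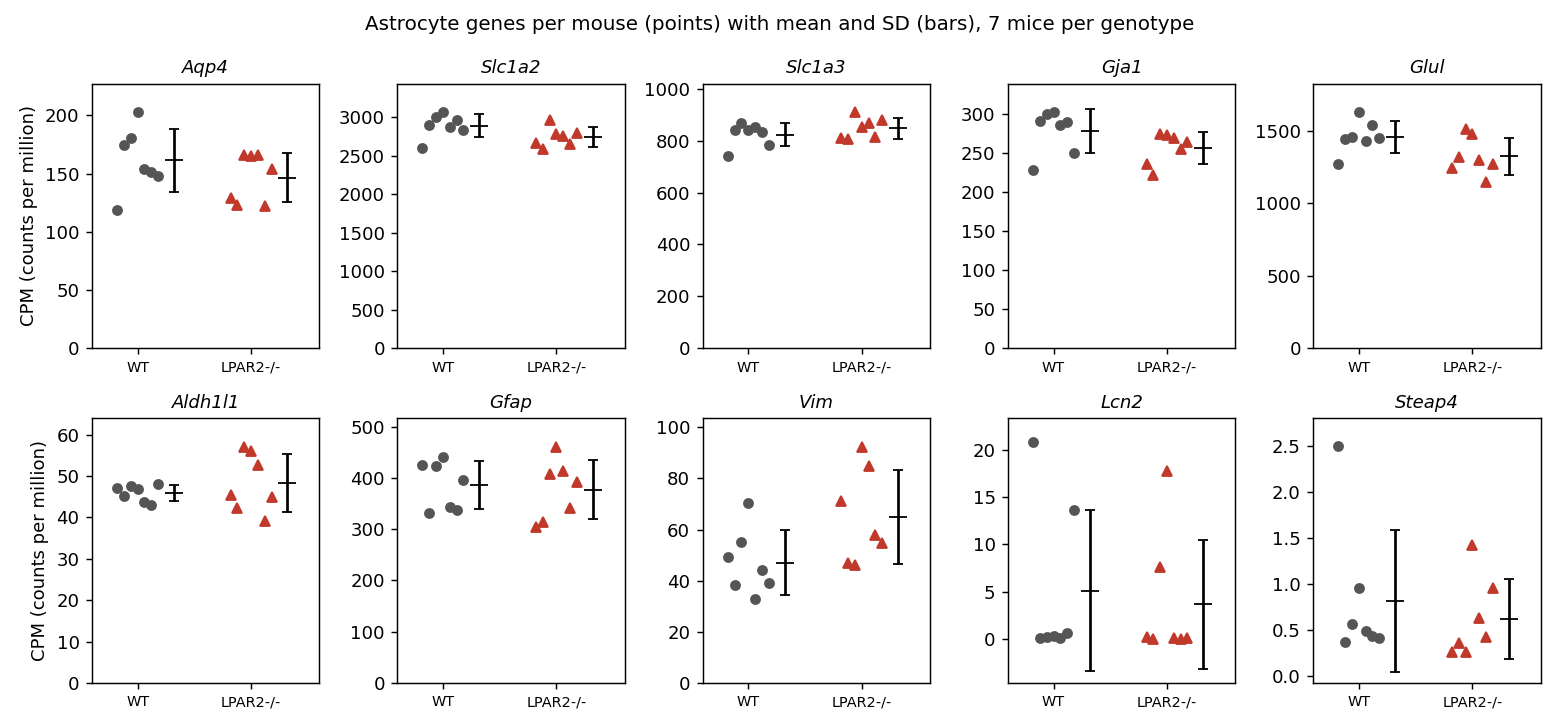
CPM (vertical axes from 0, or from just below 0 for Lcn2 and Steap4) of the 10 astrocyte genes in each mouse, with WT mice as grey circles, mice labelled LPAR2-/- as red triangles, and the mean and SD beside the points (n = 7 per genotype). The genotypes overlapped for every gene, and 2 mice of each genotype stood far above the others for Lcn2.

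Aqp4 encodes the water channel of astrocyte endfeet and lies on chromosome 18. It ranged from 121.5 CPM over a median of 154.3 to 166.3 CPM in mice labelled LPAR2-/-, and from 118.7 over 154.1 to 202.9 CPM in WT mice. The medians were nearly the same and only the upper end of the WT range was higher. The log2 fold change was −0.14 (SE 0.112, 95% interval −0.38 to 0.10, edgeR adjusted p = 0.492). In all, 9 other genes that anchor the channel or take up potassium at the endfoot were examined with it, and none was called, with a median log2 fold change of 0.00. Among them were the dystrobrevin gene Dtna (log2 fold change −0.13, adjusted p = 0.201), the potassium channel gene Kcnj10 (0.16, adjusted p = 0.28), and Mlc1, which encodes an endfoot membrane protein (0.00, adjusted p = 0.999).

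Slc1a2 and Slc1a3 encode the glutamate transporters GLT-1 and GLAST. Slc1a2 (chr2:102658683-102790784, plus strand, mm10) ranged from 2591 over 2755 to 2973 CPM in mice labelled LPAR2-/- and from 2597 over 2901 to 3066 CPM in WT mice. Slc1a3 (chr15:8634124-8710807, minus strand) ranged from 805.5 over 854.1 to 911.1 CPM and from 741.1 over 842.1 to 869.9 CPM, respectively. Both transporters were among the steadiest of the members, with coefficients of variation of 4.57% and 4.77% in mice labelled LPAR2-/- and 5.23% and 5.45% in WT mice, below the medians over all genes tested of 9.54% and 8.74%. The fold changes were accordingly narrow. Slc1a2 differed by −0.07 on the log2 scale (95% interval −0.17 to 0.02, edgeR adjusted p = 0.337). Slc1a3 differed by 0.04 (95% interval −0.05 to 0.14, edgeR adjusted p = 0.593). Both intervals lay within 0.17 of no change on the log2 scale.

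Glul encodes glutamine synthetase, which turns the glutamate taken up by these transporters into glutamine (chr1:153899929-153909723, plus strand). It ranged from 1152 over 1301 to 1513 CPM in mice labelled LPAR2-/- and from 1275 over 1449 to 1633 CPM in WT mice. Only 2 of the 7 mice labelled LPAR2-/- exceeded the WT median, but the ranges overlapped widely. The log2 fold change of −0.14 (SE 0.0633, 95% interval −0.28 to −0.01) had an unadjusted edgeR p of 0.0395 and an adjusted p of 0.197. Of 11 other genes of the glutamate and glutamine cycle 1 was called, against 6.77% of all genes tested. Slc38a3, the astrocytic transporter that releases glutamine, was higher in mice labelled LPAR2-/-, at 72.1 ± 5.2 CPM against 57.8 ± 6.22 CPM (SD, n = 7 each, log2 fold change 0.32, edgeR adjusted p = 0.00847). On the neuronal side of the cycle, none was called, with log2 fold changes of −0.08 for the glutamine importer gene Slc38a1 (adjusted p = 0.516) and 0.02 for the vesicular glutamate transporter gene Slc17a7 (adjusted p = 0.923). The median over these 11 genes was 0.02.

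Gja1 encodes connexin 43, the main gap junction protein of astrocytes (chr10:56377300-56390419, plus strand). It ranged from 221.5 over 264 to 273.6 CPM in mice labelled LPAR2-/- and from 227.6 over 288.8 to 302.5 CPM in WT mice. Although 0 of the 7 mice labelled LPAR2-/- exceeded the WT median, the lowest value of the WT mice lay close to the lowest of the mice labelled LPAR2-/-. The log2 fold change was −0.12 (95% interval −0.26 to 0.02, edgeR adjusted p = 0.315). Gjb6, the gene of the other astrocytic connexin, connexin 30, had 60.9 ± 11.7 CPM in mice labelled LPAR2-/- and 70 ± 14.1 CPM in WT mice (log2 fold change −0.20, adjusted p = 0.431). None of 8 further connexin and pannexin genes, Gjb6 included, was called (median 0.00).

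Aldh1l1 encodes a folate enzyme that is widely used as a marker of astrocytes (chr6:90550848-90599171, plus strand). It ranged from 39.23 over 45.49 to 57.13 CPM in mice labelled LPAR2-/- and from 43.1 over 46.85 to 48.24 CPM in WT mice. The coefficient of variation was 14.6% in the former and 4.25% in the latter. Of the 7 mice labelled LPAR2-/-, 3 lay above all WT mice. LPAR2-/- mice 2 and 6 lay below them (42.3 and 39.2 CPM), and LPAR2-/- mice 1 and 7 within the WT range (45.5 and 44.9 CPM). The difference in spread was not tested. The log2 fold change was 0.07 (95% interval −0.09 to 0.23, edgeR adjusted p = 0.618). Of 9 other enzymes of one-carbon folate metabolism 1 was called, against 6.77% of all genes tested. It was the mitochondrial enzyme gene Mthfd1l, higher in mice labelled LPAR2-/- (15.2 ± 2.1 against 11.2 ± 1.95 CPM, log2 fold change 0.45, edgeR adjusted p = 0.0227). The call was lost with the replicate block by mouse number (adjusted p = 0.0534) and in 2 of the 14 comparisons that left out 1 mouse. The mitochondrial relative Aldh1l2 was at 0.04 (adjusted p = 0.708).

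**Figure D2:**
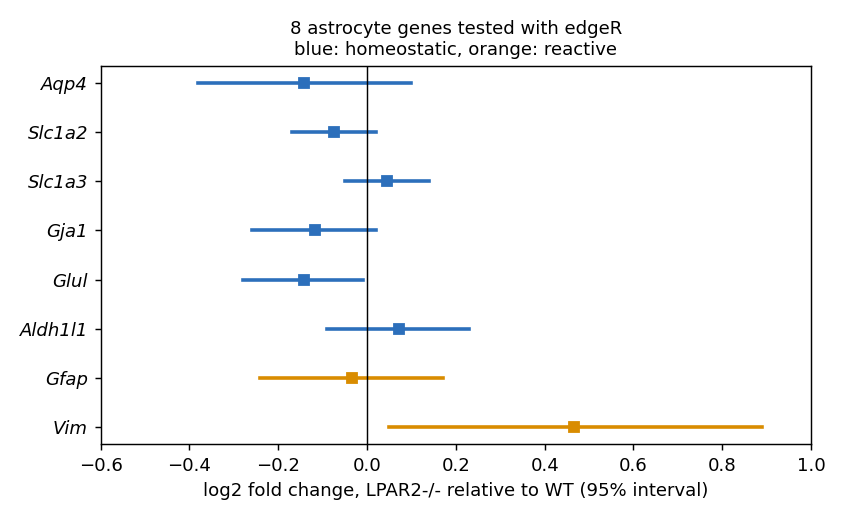
Log2 fold change of mice labelled LPAR2-/- relative to WT mice (squares) with its 95% interval (lines) for the 8 astrocyte genes that edgeR tested, homeostatic genes in blue and reactive genes in orange. The intervals of 6 genes included 0, and those of Glul (−0.28 to −0.01) and Vim (0.05 to 0.89) lay just beside it on opposite sides.

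The reactive set opened with the filament genes. Gfap encodes the glial fibrillary acidic protein, the intermediate filament by which astrocytes are usually stained (chr11:102887336-102897200, minus strand). It ranged from 305 over 393.5 to 460.8 CPM in mice labelled LPAR2-/- and from 331.9 over 397.1 to 439.7 CPM in WT mice. The medians differed by less than the spread within either genotype, and the log2 fold change was −0.03 (SE 0.0974, 95% interval −0.24 to 0.17, edgeR adjusted p = 0.884). Its sign was not stable. It turned positive when LPAR2-/- mouse 1 (0.0121), LPAR2-/- mouse 2 (0.00575) or WT mouse 4 (0.000869) was left out.

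Vim encodes vimentin, a filament protein of reactive and immature astrocytes that is also made by vascular and meningeal cells (chr2:13574311-13582826, plus strand). It ranged from 46.3 over 57.92 to 92.4 CPM in mice labelled LPAR2-/- and from 32.85 over 44.16 to 70.45 CPM in WT mice. All 7 mice labelled LPAR2-/- exceeded the WT median and 3 of them exceeded every WT mouse, while the WT mouse with 70.45 CPM lay above 4 of the 7. The log2 fold change of 0.47 (SE 0.196, 95% interval 0.05 to 0.89) had an unadjusted edgeR p of 0.0321 and an adjusted p of 0.175. None of 11 other filament and linker genes was called (median −0.04). Values were 0.03 for nestin (Nes, adjusted p = 0.898) and 0.06 for synemin (Synm, adjusted p = 0.763), the filament partners of vimentin in astrocytes, and 0.78 for the muscle and pericyte filament desmin (Des, adjusted p = 0.133).

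Over the 14 mice, with the genotype means removed, the genes most like Vim among all genes tested were Vtn (Pearson r 0.969, Spearman rho 0.978), which encodes vitronectin and is a marker of brain pericytes, Fcgrt (r 0.959) and Tbx18 (r 0.958), a transcription factor of pericytes and other mural cells. Vtn ranged from 56.3 to 108 CPM in mice labelled LPAR2-/- and from 41.7 to 93.1 CPM in WT mice. The mice with the most Vim in each genotype, LPAR2-/- mouse 4 with 92.4 CPM and WT mouse 4 with 70.5 CPM, also had the most Vtn. Summed over 8 pericyte and smooth muscle markers, the level was 184 to 335 CPM in mice labelled LPAR2-/- and 143 to 298 CPM in WT mice, with 0 of 8 called. Of their fold changes, 5 were positive and 3 negative, with a median of 0.17 on the log2 scale. Summed over 10 meningeal fibroblast markers, it was 110 to 527 CPM against 81.6 to 369 CPM, with a median log2 fold change of 1.05. Of the 10, 1 was called, against 6.77% of all genes tested (Lum, higher, log2 fold change 0.54, edgeR adjusted p = 0.0132). The call of Lum was lost with the replicate block by mouse number (edgeR adjusted p = 0.0534). Endothelial markers summed to 219 to 325 CPM against 200 to 315 CPM, with 0 of 8 called. The part of these cells in the Vim values was not tested.

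**Figure D3:**
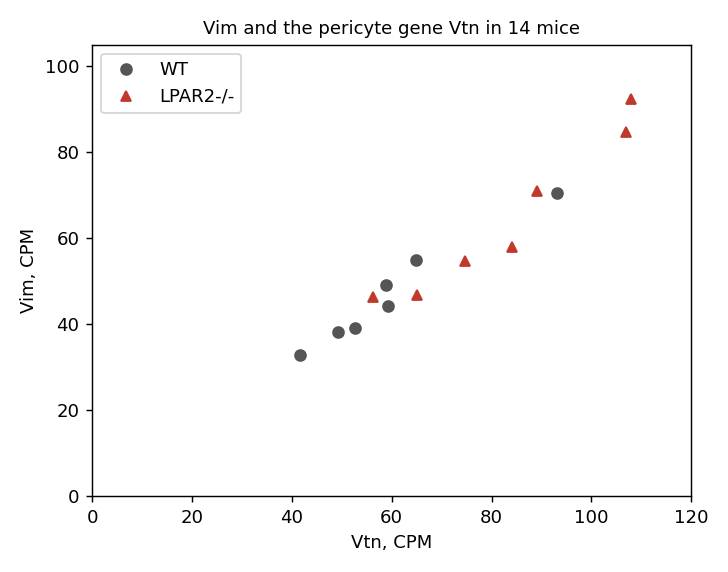
CPM of Vim (vertical axis) against CPM of the pericyte marker Vtn (horizontal axis), each point a mouse, WT mice as grey circles and mice labelled LPAR2-/- as red triangles. The mice lay along a single line, with 2 of the mice labelled LPAR2-/- at its upper end above 80 CPM of Vim.

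Lcn2 and Steap4 had too few counts in most mice for edgeR's filter. Lcn2 encodes lipocalin 2, a secreted protein that binds siderophores and is released in acute inflammation, and Steap4 encodes a metalloreductase of the cell membrane. Since their values set them apart from the other members, the sequences around their transcription start sites are shown, from 250 bases before to 50 bases after the start, 5′ to 3′ on the strand of the gene, from RefSeq with build GRCm38.p6. The promoter of Lcn2 lies at chr2:32387690-32387989 (minus strand) and that of Steap4 at chr5:7960222-7960521 (plus strand). Capitals mark matches on either strand to the NF-kB letters (GGG and CC with any 5 bases between them), the STAT letters (TTCNNNGAA) or the C/EBP letters (TTGCNNAA), which are bound by transcription factors of inflammatory and cytokine signalling.
Lcn2: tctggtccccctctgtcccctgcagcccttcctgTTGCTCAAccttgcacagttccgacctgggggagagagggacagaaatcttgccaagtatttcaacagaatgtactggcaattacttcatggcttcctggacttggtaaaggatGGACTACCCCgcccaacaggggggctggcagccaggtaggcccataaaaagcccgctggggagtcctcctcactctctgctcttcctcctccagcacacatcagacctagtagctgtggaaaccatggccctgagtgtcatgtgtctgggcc
Steap4: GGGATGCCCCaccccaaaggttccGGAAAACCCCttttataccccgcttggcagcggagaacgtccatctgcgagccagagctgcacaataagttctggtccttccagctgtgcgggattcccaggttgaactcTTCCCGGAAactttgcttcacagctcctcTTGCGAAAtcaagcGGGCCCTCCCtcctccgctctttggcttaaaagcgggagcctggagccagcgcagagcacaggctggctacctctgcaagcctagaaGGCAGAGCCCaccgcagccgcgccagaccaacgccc

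The Lcn2 promoter held 1 match to C/EBP (bases −216 to −209 from the start) and 1 to NF-kB (−102 to −93). The Steap4 promoter held a match to STAT (−116 to −108), 1 to C/EBP (−87 to −80) and 4 to NF-kB, which began at −250, −226, −73 and 15. Of the 10 members, 9 had a promoter sequence. Gfap also held STAT (−2 to 7) and NF-kB (−8 to 2), which overlap each other, and Vim held NF-kB. Of the homeostatic genes, Slc1a3 held STAT, Slc1a2 held C/EBP, Aldh1l1 held NF-kB and C/EBP, and Gja1 and Glul held none of the 3. The matches are common, since 50.8% of 32851 promoters of this length held NF-kB, 10.8% C/EBP and 8.3% STAT, and they are a description of the letters only.

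Lcn2 was nearly undetected in most mice and high in 4 (chr2:32384637-32387739, minus strand). It had 440 counts (20.8 CPM) in WT mouse 1, 411 counts (17.7 CPM) in LPAR2-/- mouse 4, 234 counts (13.6 CPM) in WT mouse 7 and 176 counts (7.62 CPM) in LPAR2-/- mouse 3. The other 10 mice had 0 to 11 counts, at most 0.682 CPM, and the count of 0 in LPAR2-/- mouse 2 allows up to 3 counts or 0.151 CPM. Both genotypes held 2 of the high mice, so the split did not follow the genotype. The mean log2 CPM of mice labelled LPAR2-/- was 0.78 below that of WT mice, and an exact two-sided permutation test of 7 against 7 mice gave p = 0.582. With medians of 0.128 and 0.35 CPM and SDs of 6.79 and 8.52 CPM around means of 3.69 and 5.13 CPM, the mean describes no mouse of either genotype.

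Steap4 had 53 counts (2.5 CPM) in WT mouse 1 and 33 counts (1.42 CPM) in LPAR2-/- mouse 4 (chr5:7960472-7982213, plus strand). The other mice had 5 to 19 counts, with 0.96 CPM in LPAR2-/- mouse 7 and 0.95 CPM in WT mouse 4 as the next highest. These top mice were also the top mice for Lcn2, whereas the other 2 mice with high Lcn2 had 7 (WT mouse 7) and 6 (LPAR2-/- mouse 3) counts of Steap4. The difference of mean log2 CPM was −0.27 (exact two-sided permutation p = 0.557). It became 0.03 without WT mouse 1.

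**Figure D4:**
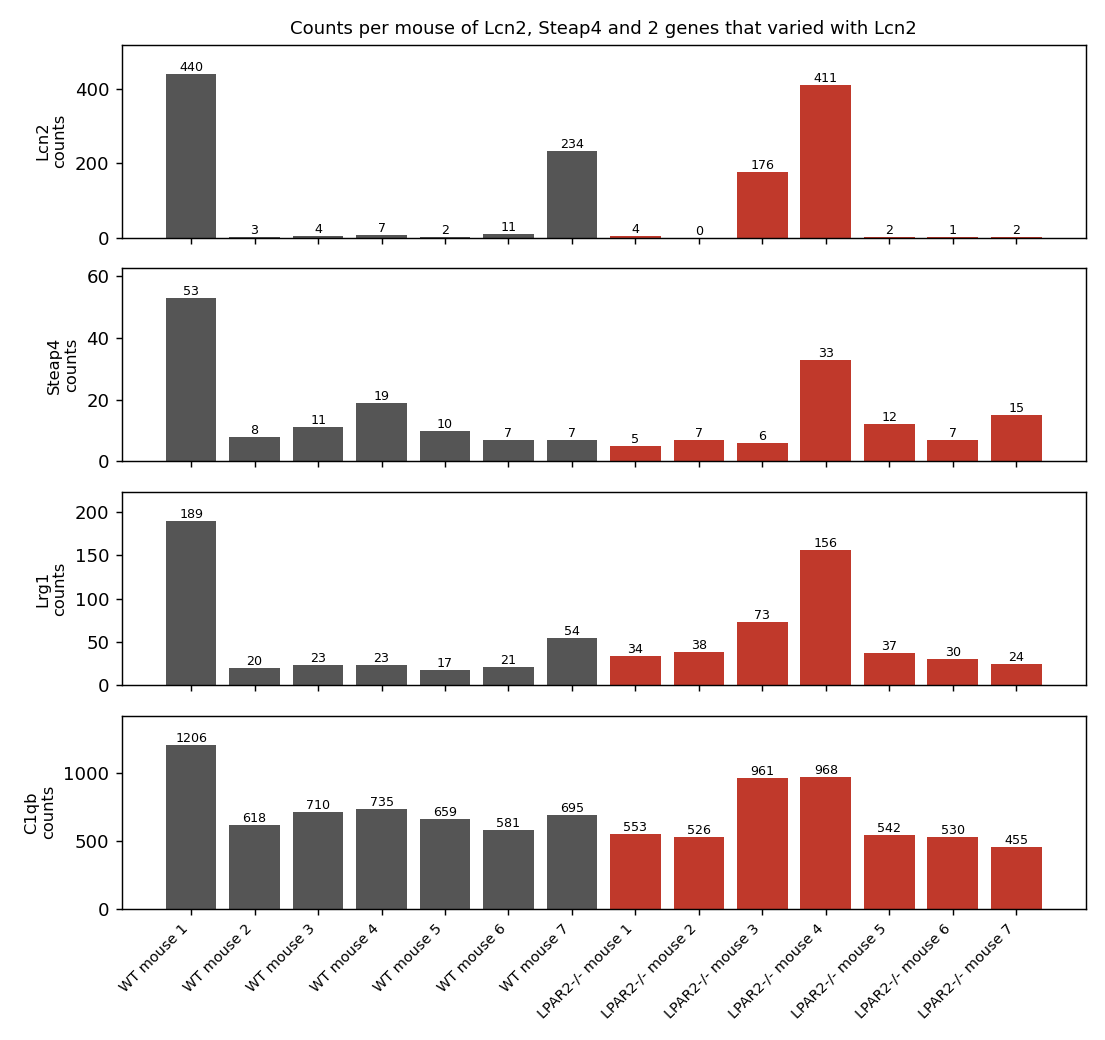
Counts (vertical axes) of Lcn2, Steap4 and the 2 genes whose pattern was most like Lcn2, Lrg1 and C1qb, in each of the 14 mice (WT mice grey, mice labelled LPAR2-/- red). Lcn2 was above 100 counts in 4 mice, 2 of each genotype, and Lrg1 was highest in the same 4.

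The genes most like Lcn2 over the 14 mice were Lrg1 (r 0.902, rho 0.697), which encodes a secreted acute-phase glycoprotein, C1qb (r 0.898, rho 0.798), a chain of the complement component C1q made by microglia, and Aga (r 0.872, rho 0.758), a lysosomal enzyme. Since the mice fell into separate clusters for Lcn2, these coefficients only rank the genes. Lrg1 had 189 counts in WT mouse 1, 156 in LPAR2-/- mouse 4, 73 in LPAR2-/- mouse 3 and 54 in WT mouse 7, and 17 to 38 counts in the other mice. C1qb was also highest in these 4 mice, at 57, 41.7, 41.6 and 40.5 CPM, but the next mouse was close to them with 36.8 CPM. The genes most like Steap4 were Ptprc (r 0.907), which encodes the leukocyte antigen CD45, Toporsos (r 0.891) and Gimap4 (r 0.882), which is expressed in lymphocytes. Ptprc had its highest values in WT mouse 1 (7.42 CPM) and LPAR2-/- mouse 4 (5.69 CPM).

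Some further genes were picked after their values had been seen, and they followed the 4 mice only in part. Socs3, an inhibitor that cytokines induce through STAT3, had 3.26 CPM in WT mouse 1, 2.46 in LPAR2-/- mouse 4 and 1.75 in WT mouse 7, but LPAR2-/- mouse 1 (1.44 CPM) lay above LPAR2-/- mouse 3 (1.34 CPM). Cd14, a coreceptor for bacterial lipopolysaccharide, had 122 counts in WT mouse 1 but 25 in WT mouse 7, where it ranked 13 of 14 by CPM. C3, the central complement component, had 42 counts in LPAR2-/- mouse 4, 32 in WT mouse 1 and 31 in LPAR2-/- mouse 3, but 12 in WT mouse 7, fewer than the 18 in WT mouse 4. The neutrophil genes S100a8 and S100a9 had 16 and 30 counts in WT mouse 1 and at most 6 and 8 counts in any other mouse. The 7 neutrophil markers together summed to 3.07 CPM in WT mouse 1 and to 0.537 to 1.4 CPM in the other mice, and 7 microglia markers to 427 CPM in WT mouse 1 and 338 to 412 CPM in the others. The part of blood cells or of microglia in the values of Lcn2 and Steap4 was not tested.

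The 4 mice with high Lcn2 lay at opposite ends of their genotypes for the homeostatic genes. Summed over the 6 genes, LPAR2-/- mice 3 and 4 had the highest levels of their genotype (5890 and 5600 CPM, the others 5030 to 5420 CPM), and WT mice 1 and 7 the lowest of theirs (5010 and 5510 CPM, the others 5640 to 6090 CPM). Leaving these mice out therefore widens the gap between the genotypes by construction. In a comparison of the other 5 mice of each genotype, added after these values had been seen, edgeR called 1718 of 14850 genes (11.6%), 804 higher (5.41%) and 914 lower (6.15%), and 2 homeostatic genes were among the lower, Gja1 (log2 fold change −0.23, adjusted p = 0.0129) and Glul (−0.25, adjusted p = 0.00861). Aqp4 (−0.32, adjusted p = 0.0795) and Slc1a2 (−0.14, adjusted p = 0.0545) had larger changes than with all mice but were not called. Slc1a3 (−0.02) and Aldh1l1 (−0.01) changed sign. Vim had a smaller fold change (0.39, adjusted p = 0.308), and no reactive gene was called. Since these mice were chosen by a member's own value, the comparison is one setting among several and no second test of the homeostatic genes.

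The contrast between the sets was also read within each mouse, as the mean log2 CPM of the 4 reactive genes minus that of the 6 homeostatic genes. It ranged from −6.22 over −5.69 to −3.79 in mice labelled LPAR2-/- and from −6.19 over −5.62 to −3.55 in WT mice. The highest values came from LPAR2-/- mouse 4 and WT mouse 1, the mice with the most Lcn2 and Steap4. With the filament genes Gfap and Vim alone, it ranged from −1.77 over −1.43 to −1.14 in mice labelled LPAR2-/- and from −2.03 over −1.77 to −1.40 in WT mice, and the genotypes overlapped. The homeostatic mean by itself was 8.71 ± 0.123 in mice labelled LPAR2-/- and 8.77 ± 0.104 in WT mice (log2 CPM, SD, n = 7 each).

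Several homeostatic genes varied together from mouse to mouse. All 45 pairs of members were correlated over the 14 mice on log2 CPM with genotype means removed, with permutation tests and Benjamini-Hochberg adjustment over the 45 pairs. Of the 15 pairs of homeostatic genes, 8 passed an adjusted p of 0.05, with r from 0.305 to 0.91 over all 15. For each passing pair, r exceeded at least 98.7% of the r that its first gene, in the order of the set, had with all genes tested. For the other pairs this share went down to 75.2% (Gja1 with Aldh1l1). The closest pair was formed by the glutamate transporters Slc1a2 and Slc1a3 (r = 0.91, permutation p = 7e-05, adjusted p = 0.000787, rho = 0.837 with an adjusted permutation p of 0.00607). It held at r = 0.812 after the 2 mice farthest from the median of Slc1a2 were left out, and within the genotypes r was 0.955 and 0.878. Aqp4 and Gja1 were close as well (r = 0.867, adjusted permutation p = 0.00045, rho = 0.925, and r = 0.786 without the 2 mice farthest from the median of Aqp4). None of the 5 pairs of Aldh1l1 with the other homeostatic genes passed over all mice. Within the genotypes, their r was 0.672 to 0.899 in mice labelled LPAR2-/- and −0.385 to 0.03 in WT mice, a difference that was not tested.

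The reactive genes did not join this group. Gfap passed with 1 of the 6 homeostatic genes, Aldh1l1 (r = 0.727, adjusted permutation p = 0.0405), but not by rank (rho = 0.666, adjusted permutation p = 0.077). The r was 0.803 without the 2 mice farthest from the median of Aldh1l1. The r of 0.727 exceeded 95.9% of the r that Aldh1l1 had with all genes tested. Vim passed with 0 of 6, with r from 0.00101 to 0.394. Between Gfap and the endfoot gene Aqp4, r was 0.911 in mice labelled LPAR2-/- and 0.0744 in WT mice, and between Gfap and Gja1 it was 0.898 and −0.248. This difference between the genotypes, seen among 45 pairs with 7 mice each, was not tested. Gfap and Steap4 had r = 0.67 (adjusted permutation p = 0.0449, rho = 0.758 with an adjusted permutation p of 0.0251). The r was 0.624 without the 2 mice farthest from the median of Gfap. The 2 mice with the most Steap4, WT mouse 1 (53 counts) and LPAR2-/- mouse 4 (33 counts), stayed in, so that value does not address their weight. Of the pairs with Lcn2, the one with Aldh1l1 passed by r (adjusted permutation p = 0.0271) but not by rank (adjusted permutation p = 0.16). Since the 4 high mice form a cluster of their own, in which a relation cannot be tested, the pooled values of Lcn2 are not read as relations between members, and those of Lrg1, C1qb and Aga only rank genes. All libraries share their total as denominator, and the share of astrocytes in each dissected tissue was not measured.

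**Figure D5:**
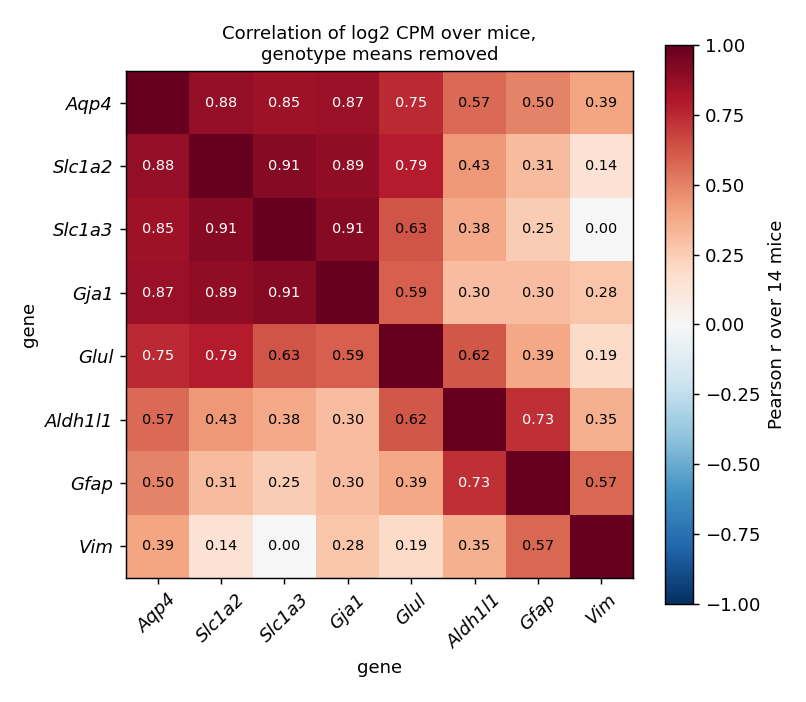
Pearson r over the 14 mice between the log2 CPM of the 8 tested astrocyte genes with genotype means removed (colour scale from −1 in blue to 1 in red, values printed in the cells). Aqp4, Slc1a2, Slc1a3 and Gja1 form a block with r of at least 0.848, and the reactive gene Vim lies outside it.

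Outside the members, the gene most like Aqp4 was Thbs4 (r 0.947, rho 0.943), which encodes the matrix protein thrombospondin 4. Slc1a2 was most like the phospholipase C gene Plcd4 (r 0.923), and Slc1a3 was most like Pla2g7 (r 0.94), which encodes a lipoprotein-associated phospholipase A2. For Gja1 it was Bmpr1b (r 0.948), a receptor for bone morphogenetic proteins, for Glul the anion exchanger gene Slc4a2 (r 0.95), for Aldh1l1 the gene 4931406P16Rik (r 0.927), and for Gfap Acadl (r 0.899), an enzyme of fatty acid oxidation. Thbs4 was also the second closest gene of Slc1a2 (r 0.922). The next closest genes were Mdc1 and Dzip1 for Aqp4, Pla2g7 for Slc1a2, Aqr and Slc1a2 for Slc1a3, and Tmem47 and Aqr for Gja1. They were Zcchc24 and Trp53bp2 for Glul, Itga6 and Lzts2 for Aldh1l1, and Mlph and Vwa1 for Gfap, all with r from 0.895 to 0.937. Thbs4 was called between the genotypes, with 3.61 ± 1.31 CPM in mice labelled LPAR2-/- and 8.94 ± 3.96 CPM in WT mice (log2 fold change −1.29, edgeR adjusted p = 0.0247). The call was lost in 3 of the 14 comparisons that left out 1 mouse, and a difference from Aqp4 was not tested.

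Wider lists of astrocyte genes were read against the share of all genes called (6.77%, 3.32% higher and 3.46% lower). Of 40 other homeostatic astrocyte genes, 1 was higher and 3 were lower in mice labelled LPAR2-/-. Their median was −0.03 on the log2 scale against 0.00 over all genes, and 13 had a positive and 27 a negative fold change. The higher gene was Mfge8, which encodes a secreted bridge for phagocytosis (0.24, edgeR adjusted p = 0.0235). The lower genes were Phkg1, a catalytic subunit of the kinase that starts glycogen breakdown (−0.56, adjusted p = 0.000505), the transcriptional inhibitor Id4 (−0.38, adjusted p = 0.0349) and Cbs, which makes cystathionine from homocysteine (−0.33, adjusted p = 0.0303). When each of the 14 mice was left out in turn, Id4 lost its call in 10 comparisons, Cbs in 7 and Mfge8 in 2. Phkg1 fell from 27.1 ± 3.22 CPM in WT mice to 18.4 ± 1.57 CPM in mice labelled LPAR2-/-, without overlap between the genotypes.

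Among 7 tested of 9 pan-reactive astrocyte genes, 1 was called, against 3.32% of all genes called higher. Serpina3n, a secreted serine protease inhibitor that rises in reactive astrocytes but is also made by oligodendrocytes, had 152 ± 15.4 CPM in mice labelled LPAR2-/- and 84.7 ± 20.9 CPM in WT mice (SD, n = 7 each, log2 fold change 0.84, edgeR adjusted p = 0.00224). The lowest value in mice labelled LPAR2-/-, 128 CPM, lay above the highest WT value, 118 CPM. The median over the list was 0.05. Oligodendrocyte markers summed to 969 to 3880 CPM in mice labelled LPAR2-/-, with the highest sum in mouse 3, and to 1200 to 2030 CPM in WT mice, and 0 of 6 were called.

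Of 12 genes linked to reactive astrocytes of inflammation, 2 were called and higher in mice labelled LPAR2-/-, the class I histocompatibility genes H2-T23 (log2 fold change 0.60, edgeR adjusted p = 0.0369) and H2-D1 (0.51, adjusted p = 0.0375), with a list median of 0.29 and a positive fold change in 10 of the 12. The summed level of the list overlapped fully between the genotypes (175 to 234 CPM in mice labelled LPAR2-/-, 187 to 229 CPM in WT mice), but its most abundant genes, Fkbp5 (116 against 125 CPM) and Amigo2 (23.7 against 31.9 CPM), were the 2 with a negative fold change. H2-T23 was highest in LPAR2-/- mice 5 and 4 (6.89 and 6.59 CPM), the mice with the highest sums of meningeal fibroblast markers (527 and 448 CPM), and it had 3.48 CPM in LPAR2-/- mouse 2 (184 CPM) and 3.72 CPM in LPAR2-/- mouse 3 (110 CPM, the lowest sum of its genotype). H2-D1 followed these sums only in part. It was highest in LPAR2-/- mouse 4 (19.1 CPM) and next in LPAR2-/- mouse 1 (16.7 CPM, sum 313 CPM). It had 14.7 CPM in LPAR2-/- mouse 5, 14.2 CPM in LPAR2-/- mouse 3 and 10.8 CPM in LPAR2-/- mouse 6 (sum 406 CPM). The part of these cells in the list was not tested. These genes are expressed by many cell types and have close paralogs, so that reads may be shared. H2-T23 and H2-D1 lost the call in 8 and 9 of the 14 comparisons that left out 1 mouse. Of 10 tested genes linked to injury, none was called (median 0.26, 7 positive). In the STAT3 and cytokine list, 1 of 13 tested genes was called, the transcription factor gene Cebpd (0.37, adjusted p = 0.0268, lost in 4 of the 14 comparisons that left out 1 mouse), with a median of −0.05 and Stat3 itself at −0.17 (adjusted p = 0.202). None of 7 tested lipocalin receptor, iron and STEAP genes was called (median 0.10), among them the lipocalin 2 receptor gene Slc22a17 (0.10, adjusted p = 0.176) and Steap2 (0.01, adjusted p = 0.949).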

How the data were processed

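Total RNA of the hippocampus was sequenced from 14 mice. The authors used cutadapt 1.18 for trimming, STAR for alignment (mm10) and featureCounts 1.6.3 for the counts per gene, taken over exons and the reverse strand, and deposited these counts. A deposited table of normalized values (28 value columns) was not used here because its decimal points were lost. The 10 members, the gene lists and the tests were chosen with earlier results of these data known.

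Computations used R 4.3.3. Genes were kept by filterByExpr (14897 of 24421), scaled by TMM and tested with edgeR 4.0.16 (robust quasi-likelihood F test, 7 against 7 mice, no covariate, Benjamini-Hochberg adjusted p under 0.05). CPM were computed with the TMM library sizes, and log2 CPM included a prior count of 2. Lcn2 and Steap4 were compared by exact two-sided permutation of log2 CPM (3432 arrangements, smallest p 0.000583), and correlations by 100000 permutations. A count of 0 allows up to 3 counts (0.129 to 0.194 CPM), which covers counting error only, since the reads carry no molecular identifiers. Promoters came from RefSeq.

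Genes named were the members, Lpar2, called genes of each list, partners of the members, and for each member the 3 genes of highest r. Socs3, Cd14, C3, S100a8, S100a9, Fkbp5 and Amigo2 were added after their values had been seen. Alternatives were DESeq2 1.42.0, limma 3.58.1, other scalings and filters, a replicate block by mouse number, a prior count of 0.5, and each mouse left out. The scripts were tested on simulated data. One gene of a list was matched by its older symbol. Some genes of the lists are not reported here by name.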

Additional observations from a re-analysis of the deposited data

Results flagged for a closer look

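In groups of 7 mice, a mouse was picked out where its gap to the next mouse, divided by the range of the group, exceeded Dixon's 95% critical value for groups of this size. For normally distributed values, chance picks out about 1 in 20 groups, and 20 groups were checked. The CPM of Lcn2 and Steap4 were strongly skewed, so this rate does not hold for them. Lcn2 in LPAR2-/- mouse 4, at 17.7 CPM with 7.62 CPM in the next mouse, lay at the limit (0.569). Steap4 in WT mouse 1, at 2.5 CPM with 0.95 CPM in the next WT mouse, lay beyond it (0.726). The Lcn2 values of WT mice were not picked out, because WT mouse 1 and WT mouse 7 were both high.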

How the results depend on the processing

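The 8 tested members remained without a call under DESeq2, limma, other scalings and filters and when any 1 mouse was left out. Without the 4 mice with over 100 Lcn2 counts, an alternative chosen after seeing the data, 804 genes were higher and 914 lower, and 2 homeostatic genes were called, Gja1 (−0.233) and Glul (−0.254), while Slc1a3 (−0.0195) and Aldh1l1 (−0.0104) reversed. The mice left out had the highest homeostatic sums of the mice labelled LPAR2-/- and the lowest of the WT mice, which widens the gap by construction. Mice of one number in the 2 genotypes had correlations of −0.33 to 0.31 (3 of 7 above 0.1, 3 of 7 mice closest to their own number). These values do not settle whether the numbers pair the mice. With a replicate block by mouse number, the SE was 0.0769 for Aqp4 (0.112 without it) and 0.154 for Vim (0.196 without it). The replicate block gave 314 higher and 272 lower genes, called 0 members, and lost H2-T23 (adjusted p = 0.0625), Mthfd1l (0.0534) and Lum (0.0534). Over the 8 alternatives that did not leave out a single mouse, H2-T23 kept its call in 6 and H2-D1 in 7. Leaving out each mouse gave 275 to 660 higher and 292 to 725 lower genes, with both lowest counts without WT mouse 2 (over 1.5 times fewer higher genes also without LPAR2-/- mouse 1 or WT mouse 5, and lower genes without LPAR2-/- mouse 1 or 5 or WT mouse 4, 5 or 6), and log2 fold changes of −0.204 to −0.078 for Aqp4, −0.0984 to −0.0595 for Slc1a2, 0.0198 to 0.0572 for Slc1a3, −0.16 to −0.0849 for Gja1, −0.176 to −0.111 for Glul, 0.0269 to 0.116 for Aldh1l1, −0.0857 to 0.0121 for Gfap (0.00575 without LPAR2-/- mouse 2 and 0.000869 without WT mouse 4) and 0.36 to 0.592 for Vim. The differences of mean log2 CPM ranged from −1.59 to −0.0643 for Lcn2 and from −0.484 to 0.029 for Steap4. Id4 lost its call in 10 of these 14 comparisons, Cbs in 7, Cebpd in 4, Thbs4 in 3, Mfge8 and Mthfd1l in 2 each.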

Other observations

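Genes of radial glia-like stem cells of the dentate gyrus, which share many transcripts with astrocytes, held 2 called genes among 8 tested of 9, both lower in mice labelled LPAR2-/-, against 3.46% of all genes called lower. Hopx, a homeodomain-only protein of quiescent stem cells and astrocytes, had 61.1 ± 4.14 CPM in mice labelled LPAR2-/- and 77 ± 8.1 CPM in WT mice (log2 fold change −0.33, edgeR adjusted p = 0.00563), and Thbs4 was the other. The list median was 0.00. Of 6 oligodendrocyte precursor markers 1 was called, against 6.77% of all genes called, 3.46% lower. It was Gpr17, a receptor of committed precursors, with 40.9 ± 4.42 CPM against 64.7 ± 11.3 CPM (log2 fold change −0.66, edgeR adjusted p = 0.00287).

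Neuron markers summed to 10400 to 12500 CPM in mice labelled LPAR2-/- and 10400 to 11900 CPM in WT mice (0 of 6 called), and 0 of 7 microglia markers were called. Choroid plexus markers summed to 294 CPM in LPAR2-/- mouse 2 and to 28 to 52.5 CPM in every other mouse, with 0 of 3 tested called. Ependymal markers summed to 14.6 to 35.7 CPM against 13.1 to 22.1 CPM (0 of 3 tested called). Of the red blood cell markers, the 4 globin genes were listed at 0 in all 14 libraries and only Alas2 had counts, at 1.02 to 3.14 CPM against 1.05 to 2.1 CPM (not called). Of the neutrophil markers, 1 of 7 was tested and it was not called.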
